A study of Mus musculus with 6 samples.

Results

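Iron recycling and storage genes were followed in RNA from CD8+ T cells of mouse spleen. The list was taken by name and holds 10 genes: the haem-breakdown genes Hmox1 and Blvrb, the iron exporter gene Slc40a1, the ferritin genes Fth1 and Ftl1, the uptake and transport genes Tfrc, Slc11a1 and Slc11a2, and the regulators Ncoa4 and Ireb2. All 10 were found by gene identifier among the 19323 genes measured, and all 10 were among the 13430 genes tested. The MCDHFD libraries came from WT C57BL/6 animals fed that diet for 7 weeks, and they were set against those of WT C57BL/6 animals fed ND for 7 weeks. Both groups were 6 weeks old at the start, and each diet had 3 libraries. MASH, the condition the labels say is modelled here, is inflammation of a fatty liver. They name neither the method that isolated the CD8+ cells nor whether each library came from its own animal, so each p-value speaks only of the spread among these libraries, and that spread may be technical.

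Spleen is a main site of iron recycling. In its red pulp, macrophages take up worn red cells, haem oxygenase opens the haem ring, biliverdin reductase converts the product to bilirubin, and the freed iron is either stored in ferritin or sent out of the cell through ferroportin. T cells take up iron mainly through the transferrin receptor, whose level rises when they divide. Iron also controls these genes after transcription: when cells are low in iron, the iron regulatory proteins bind a hairpin called the iron-responsive element, which blocks translation when it stands before the coding region and protects the RNA from decay when it stands after it. RNA levels of genes with the element before the coding region therefore do not show how much protein was made.

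That element is printed for the genes that carry it, because among these its position parts the storage and export genes from the uptake genes Tfrc and Slc11a2. It was searched as the letters CNNNNNCAGTGN on the transcript strand, followed by 5 bases of which at least 4 pair with the 5 bases between the first C and the CAGTGN loop (G-U pairs allowed), in the untranslated regions of coding transcripts of the basic GENCODE M21 annotation (GRCm38). Capitals mark the bulged C and the loop, and the sequences are written as DNA.
Fth1, before the coding region, chr19:9982732-9982761, plus strand: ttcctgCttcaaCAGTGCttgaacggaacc
Ftl1, before the coding region, chr7:45459778-45459807, minus strand: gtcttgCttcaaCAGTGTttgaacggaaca
Slc40a1, before the coding region, chr1:45925464-45925493, minus strand: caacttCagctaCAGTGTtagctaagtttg
Tfrc, after the coding region, chr16:32631219-32631248, plus strand: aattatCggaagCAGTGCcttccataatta
Tfrc, after the coding region, chr16:32631598-32631627, plus strand: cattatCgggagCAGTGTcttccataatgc
Tfrc, after the coding region, chr16:32631663-32631692, plus strand: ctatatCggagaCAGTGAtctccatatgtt
Tfrc, after the coding region, chr16:32631710-32631739, plus strand: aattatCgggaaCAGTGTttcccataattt
Slc11a2, after the coding region, chr15:100395152-100395181, minus strand: agccatCagagcCAGTGTgtttctatggtt

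The matches of Fth1, Ftl1, Slc40a1 and Tfrc had 5 of 5 pairs, and that of Slc11a2 had 4 of 5. Among 21840 protein-coding genes, 28 (0.128%) had a match with 5 of 5 pairs before the coding region and 127 (0.582%) had one after it. With 4 pairs sufficing, 858 (3.93%) had one after it, so the match of Slc11a2 is of a more common kind. In Slc11a2 the match stood in transcript Slc11a2-205 and not in transcript Slc11a2-201, the 2 coding transcripts searched. Ftl1-204 and Tfrc-202, the second coding transcripts of those genes, also held no match. The deposited values are per gene, so for Slc11a2, Ftl1 and Tfrc the transcripts with and without the element could not be told apart. No match with at least 4 pairs was found in the untranslated regions of Hmox1, Blvrb, Slc11a1, Ncoa4 or Ireb2, which says only that these letters are not there.

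**Figure D1:**
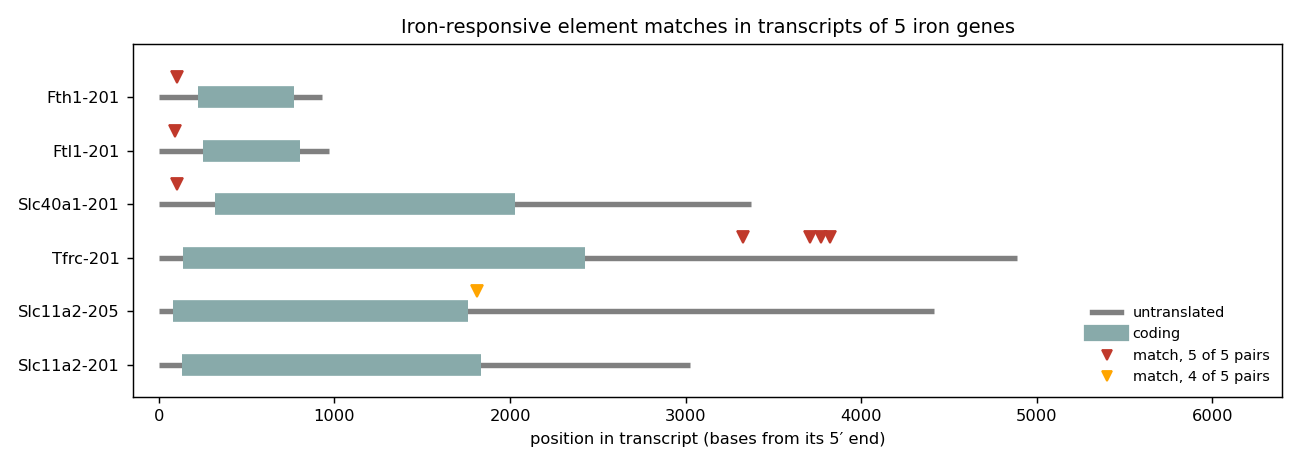
Position of the iron-responsive element matches in transcripts of 5 iron genes, drawn to scale in bases from the 5′ end of each transcript (horizontal axis). Thick bars are coding regions, thin lines untranslated regions, and triangles matches: Fth1, Ftl1 and Slc40a1 each have 1 before the coding region, Tfrc has 4 after it, and Slc11a2 has 1 after it in Slc11a2-205 only among the 2 transcripts drawn.

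The label of the cells was checked first, since splenic macrophages express most of these genes. All 18 markers of CD8 T cell identity were detected in every library, and all 18 fell in MCDHFD, to 0.382% ± 0.0284 of all normalized counts in MCDHFD libraries, against 0.796% ± 0.00232 in ND libraries (SD, n = 3 each). The 27 markers of red pulp macrophages and monocytes took 2.11% ± 0.219 in MCDHFD libraries and 0.438% ± 0.0383 in ND libraries, and 23 of them rose while 3 fell. The 3 were Timd4 (log2 fold change -1.28), a marker of resident macrophages, and the monocyte markers Ly6c2 (-0.88) and Ccr2 (-0.62), named after their values were seen, and the myeloid marker Lyz2 did not pass the test (-0.19). These falls depend on scaling: with CD8 T cell markers held equal between libraries, 24 of the 27 were called higher and 0 lower. Of all tested genes 84.1% were then higher and 3.13% lower. The summed normalized counts of this list were 270449 to 328462 in MCDHFD libraries and 56411 to 65921 in ND libraries, a 4.98-fold ratio, and none of its markers was at 0 in either diet. All 20 tested erythroid markers rose, with sums of 16430.0 to 27178 in MCDHFD libraries and 2766 to 2977 in ND libraries. Of 15 tested neutrophil markers 13 rose, with sums of 11323 to 19129 in MCDHFD libraries and 1826 to 2634 in ND libraries. Cxcr2 (log2 fold change -0.03) and Csf3r (0.13) did not pass the test, and Ly6g was too low to be tested. Most dendritic cell markers (13 of 14) and B cell markers (11 of 12) fell, and with CD8 T cell markers held equal 11 and 9 of them were still lower. The exceptions were Itgax (log2 fold change 0.22) and Ighm (0.41), which rose. Ighm made up most of the B cell sum, with 15551 to 17984 normalized counts in MCDHFD libraries, where that sum was 17480 to 20308. In ND libraries Ighm had 12320 to 12794, where the sum was 19821 to 22236. Cd209a, a dendritic cell marker, was at 0 in all 3 MCDHFD libraries. In bulk samples, a changed number of cells of a type and a changed amount of RNA per cell cannot be told apart. The part of these marker shifts in the changes of the iron genes was not tested.

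**Figure D2:**
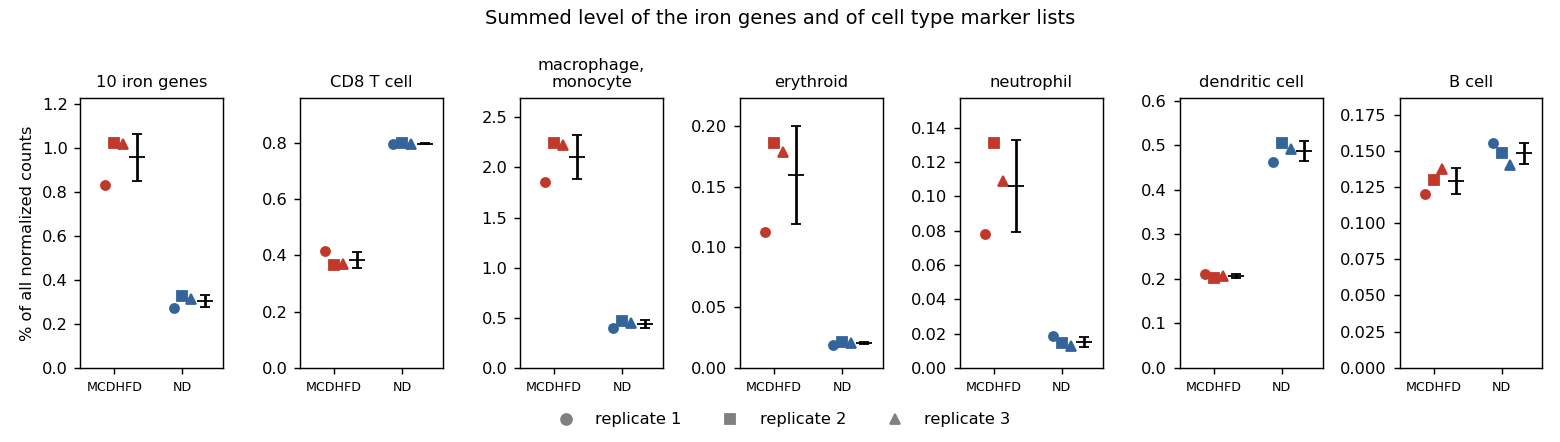
Summed level of the 10 iron genes and of 6 cell type marker lists, as a percentage of all normalized counts in each library (vertical axes from 0, each with its own scale). Symbols are single libraries of MCDHFD (red) and ND (blue), and black bars are means with SD over 3 libraries. The iron genes, macrophage and monocyte, erythroid and neutrophil lists stood higher in every MCDHFD library than in any ND library, and the CD8 T cell, dendritic cell and B cell lists stood lower, with the deposited scaling. Most of the B cell sum is Ighm, which rose while the other B cell markers fell.

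The iron genes together took 0.957% ± 0.108 of all normalized counts in MCDHFD libraries and 0.302% ± 0.0274 in ND libraries (SD, n = 3 each). Of the 10, 9 rose and 1, Slc11a2, fell (limma on log2 of the value plus 1, adjusted over all tested genes, at 0.05), and 7 rose by at least 2-fold. Change was common in these libraries: 58.4% of all tested genes passed the test, 30.3% higher and 28.1% lower, 13.1% were higher by at least 2-fold and 7.66% lower by as much. The libraries of the diets did not overlap for any of the 10 genes, against 65.4% of tested genes without overlap. The median log2 fold change of the 10 was 1.47, beside 0.004 over all tested genes. The split of all tested genes depends on scaling, and with quantile scaling 26.4% were higher and 33.9% lower, with 8 iron genes higher and Slc11a2 lower. The direction of Slc11a2 depends on it too: with the CD8 T cell identity markers held equal between libraries, all log2 fold changes shift upward by 1.05, 84.1% of tested genes are higher and 3.13% lower, and all 10 iron genes are higher, Slc11a2 included. Relative to the median of all tested genes, this scaling leaves each gene where it was. All genes below are protein-coding, and coordinates are those of GRCm38.

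**Figure D3:**
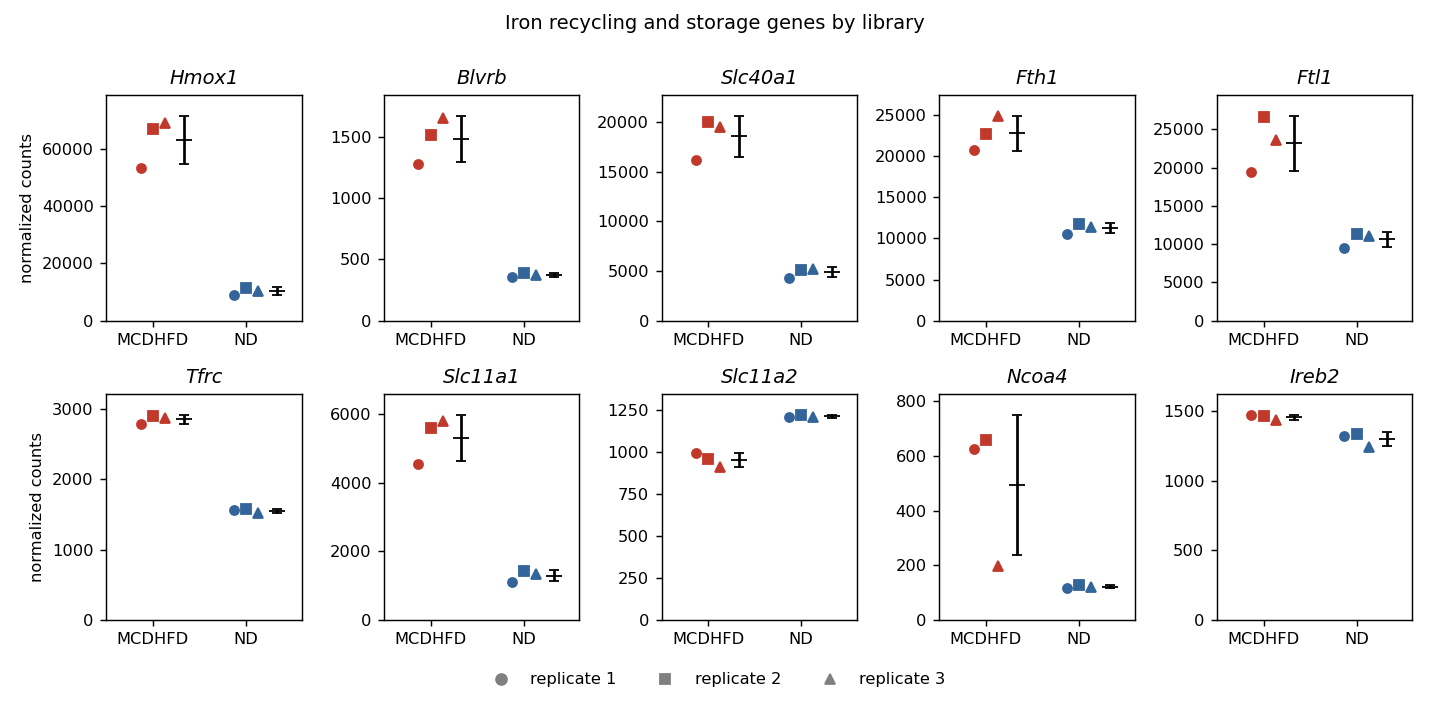
Normalized counts of each iron gene (vertical axes from 0, each with its own scale) in the 3 MCDHFD libraries (red) and the 3 ND libraries (blue), with the mean and SD in black. No gene has overlapping diets, Hmox1 has the widest ratio, Slc11a2 is lower in MCDHFD with the deposited scaling and higher with CD8 T cell markers held equal, and Ncoa4 has 1 MCDHFD library far below the others.

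Haem breakdown. Hmox1 (ENSMUSG00000005413, chromosome 8, 75093621 to 75100589, plus strand) encodes the inducible haem oxygenase, the enzyme that opens the haem ring and frees its iron. It had 53268, 66906 and 68873 normalized counts in MCDHFD libraries, against 8887, 11527 and 10419 in ND libraries. The lowest MCDHFD library thus stood far above the highest ND library, and replicate 1 was the lowest in each diet. The means were 63016 ± 8499 in MCDHFD libraries and 10278 ± 1326 in ND libraries (SD, n = 3 each), a 6.13-fold ratio. The log2 fold change was 2.62, with a 95% interval of 2.34 to 2.89 (SE 0.12, adjusted p = 4.3e-07 in limma). By log2 fold change Hmox1 lay at percentile 97.1 of all tested genes, and it was the most changed of the 10. Hmox1 alone took 0.43% ± 0.0562 of all normalized counts in MCDHFD libraries and 0.0725% ± 0.00981 in ND libraries.

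Blvrb (ENSMUSG00000040466, chromosome 7, 27447978 to 27466144, plus strand) encodes biliverdin reductase B, also known as a flavin reductase of red cells. Its normalized counts were 1280.0, 1518 and 1655 in MCDHFD libraries, against 353, 393 and 373 in ND libraries. Each MCDHFD library held over 3-fold the count of any ND library, and the log2 fold change was 1.98 (SE 0.10, limma adjusted p = 6.2e-07). Within a library, Hmox1 exceeded Blvrb by 5.41 ± 0.05 on the log2 scale in MCDHFD libraries and by 4.78 ± 0.11 in ND libraries, a difference of 0.63 with no overlap of the diets. The two-sided exact permutation test over libraries gave p = 0.1, which is the lowest value possible with 3 libraries on each side, and 0.125 after adjustment over the 5 ratios tested. The 3 others of these 5 ratios with this p have the same adjusted value. Hmox2, the constitutive haem oxygenase, had 823, 897 and 723 normalized counts in MCDHFD libraries, against 751, 569 and 778 in ND libraries. Its diets overlapped and it did not pass the test (log2 fold change 0.23, limma adjusted p = 0.159). The log2 ratio of Hmox1 to Hmox2 was 6.27 ± 0.28 in MCDHFD libraries and 3.88 ± 0.41 in ND libraries (exact permutation p = 0.1, n = 3 each).

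Iron export. Slc40a1 (ENSMUSG00000025993, chromosome 1, 45908068 to 45926523, minus strand) encodes ferroportin, the known iron exporter of mammalian cells, through which macrophages return recycled iron to plasma. It had 16196, 20038 and 19502 normalized counts in MCDHFD libraries, against 4308, 5154 and 5198 in ND libraries. The diets stood well apart, and replicate 1 was again the lowest in each. The ratio of means was 3.80-fold and the log2 fold change 1.93 (SE 0.10, limma adjusted p = 7.6e-07), close to those of Blvrb.

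Iron storage. Ferritin is a shell of heavy chains, which oxidise iron, and light chains, which help to mineralise it. Fth1 (ENSMUSG00000024661, chromosome 19, 9980598 to 9985098, plus strand), the heavy chain gene, had 20730.2, 22641 and 24931 normalized counts in MCDHFD libraries, against 10540.3, 11791 and 11441 in ND libraries. Its log2 fold change was 1.01 (SE 0.08, limma adjusted p = 7.5e-06). Ftl1 (ENSMUSG00000050708, chromosome 7, 45457944 to 45459884, minus strand), the light chain gene, had 19397, 26559.7 and 23618 normalized counts in MCDHFD libraries, against 9473, 11312 and 11030.0 in ND libraries, which gives a log2 fold change of 1.12 (SE 0.11, adjusted p = 4.5e-05 in limma). The 95% intervals of both chains overlapped each other and lay below those of Hmox1, Blvrb and Slc40a1.

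The log2 ratio of Fth1 to Ftl1 was -0.02 ± 0.18 in MCDHFD libraries and 0.09 ± 0.06 in ND libraries (n = 3 each), the diets overlapped, and the exact permutation test gave p = 0.6. Reads of the light chain can be split with a near-identical copy, Ftl1-ps1 (ENSMUSG00000062382, chromosome 13), which had 5286, 6960.3 and 6660 normalized counts in MCDHFD libraries, against 1744, 1982 and 2008 in ND libraries. The sources used here do not say how reads that match both were counted, so the level of Ftl1 is uncertain to that extent. With both light chain rows summed, an alternative chosen after seeing the data, the log2 fold change of the light chain was 1.23, and the log2 ratio of heavy to light chain was -0.37 ± 0.17 in MCDHFD libraries and -0.15 ± 0.05 in ND libraries, without overlap (exact permutation p = 0.1, n = 3 each). Ftl1 also overlaps the annotated genes Gm22133 and Gm10252, and whether the counting used strand is not stated.

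Iron uptake and transport. Tfrc (ENSMUSG00000022797, chromosome 16, 32608920 to 32632794, plus strand) encodes transferrin receptor 1, which takes up iron-loaded transferrin and is high on dividing lymphocytes and on red cell precursors. It had 2785, 2907 and 2876 normalized counts in MCDHFD libraries, against 1558, 1579 and 1516 in ND libraries. The libraries of each diet lay close together, and the log2 fold change was 0.88 (SE 0.05, limma adjusted p = 1.2e-06). Slc40a1, for export, and Tfrc, for uptake, both rose, and their log2 ratio was 2.70 ± 0.14 in MCDHFD libraries and 1.65 ± 0.16 in ND libraries (difference 1.05, exact permutation p = 0.1, n = 3 each).

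Slc11a1 (ENSMUSG00000026177, chromosome 1, 74375195 to 74386062, plus strand) encodes NRAMP1, a metal transporter of the phagosomes of macrophages and neutrophils, and C57BL/6 mice are known to carry an allele of it without function. It had 4538, 5584 and 5794 normalized counts in MCDHFD libraries, against 1101, 1413 and 1340.1 in ND libraries, which gives a log2 fold change of 2.04 (SE 0.11, adjusted p = 1.2e-06 in limma). Slc11a2 (ENSMUSG00000023030, chromosome 15, 100387898 to 100425072, minus strand) encodes DMT1, which moves iron out of endosomes after transferrin uptake. It had 991, 957 and 908 normalized counts in MCDHFD libraries, against 1209, 1219.9 and 1205 in ND libraries. Slc11a2 was thus lower in each MCDHFD library (adjusted p = 0.000793 in limma, log2 fold change -0.35, SE 0.06), but with CD8 T cell markers held equal it was higher, at a log2 fold change of 0.71 (limma adjusted p = 9.5e-06). Between the related transporters the log2 ratio of Slc11a1 to Slc11a2, in which a scaling factor per library cancels, was 2.47 ± 0.25 in MCDHFD libraries and 0.08 ± 0.19 in ND libraries (exact permutation p = 0.1, n = 3 each). Slc11a2 overlaps Gm5475, annotated on the opposite strand.

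Ferritin turnover and iron sensing. Ncoa4 (ENSMUSG00000056234, chromosome 14, 32159865 to 32179855, plus strand) encodes the receptor that carries ferritin to lysosomes for breakdown. It had 627, 657 and 197 normalized counts in MCDHFD libraries, against 116, 126 and 122 in ND libraries. MCDHFD replicate 3 stood far below the other MCDHFD libraries, though above all ND libraries. The log2 fold change was 1.83 (SE 0.40, limma adjusted p = 0.00368), and without MCDHFD replicate 3 it was 2.39. Such a pattern was rare, as 42 of 9926 genes with a mean of at least 100 in MCDHFD libraries (0.423%) had 1 MCDHFD library at least 2-fold below the others while those lay within 1.25-fold of each other.

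Ireb2 (ENSMUSG00000032293, chromosome 9, 54863789 to 54912530, plus strand) encodes iron regulatory protein 2, which binds the elements printed above and is broken down when iron is plentiful. It had 1471, 1462 and 1434 normalized counts in MCDHFD libraries, against 1325, 1335 and 1242 in ND libraries. The difference was small (adjusted p = 0.0288 in limma, log2 fold change 0.16, SE 0.05), and the call was lost under 7 alternatives. Among them were leaving out ND replicate 3 (limma adjusted p = 0.106) and edgeR on recovered reads (adjusted p = 0.136). The recovered reads also lack ND replicate 3, so these alternatives are not separate checks. Aco1, which encodes iron regulatory protein 1, an aconitase when it holds an iron-sulphur cluster, rose to 996 ± 95.2 normalized counts in MCDHFD libraries, against 541 ± 18.6 in ND libraries (log2 fold change 0.88, limma adjusted p = 2.5e-05).

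**Figure D4:**
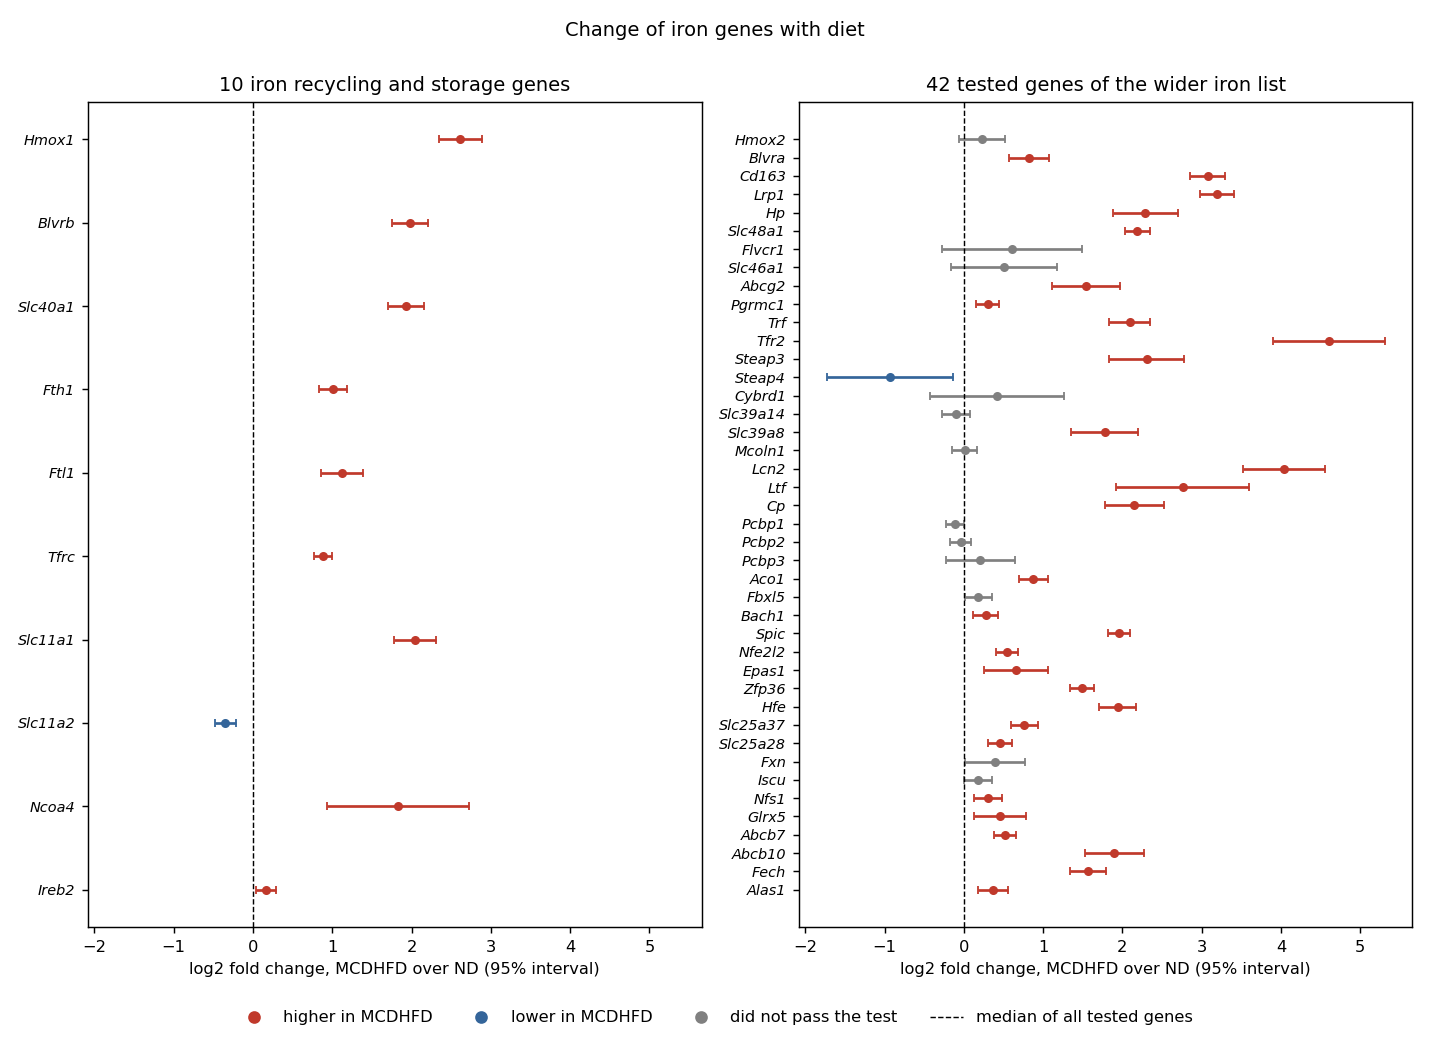
Log2 fold change of MCDHFD over ND with its 95% interval (horizontal axes) for the 10 iron genes and for the 42 tested genes of the wider iron list. Red points rose, blue points fell and grey points did not pass the limma test, and the dashed line is the median of all tested genes. Most points lie right of that line, up to 4.60 for Tfr2. The called genes Slc11a2 and Steap4 lie left of it with the deposited scaling and are above 0 with CD8 T cell markers held equal. The grey points of Pcbp1, Pcbp2 and Slc39a14 also lie left of it.

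Levels of different genes were compared per kilobase of the lowest-numbered coding transcript of each gene, a length chosen after the values were seen. In MCDHFD libraries the level of Hmox1 was the highest of the 10, at 40163 ± 5417 normalized counts per kilobase (SD, n = 3). Fth1 (24507 ± 2264) and Ftl1 (23958 ± 3720) overlapped below it, and Slc40a1 (5513 ± 617), Slc11a1 (2292 ± 291), Blvrb (1444 ± 185), Tfrc (584 ± 12.98), Slc11a2 (315 ± 13.8), Ireb2 (252 ± 3.36) and Ncoa4 (148 ± 76.9) followed without overlap. In ND libraries Fth1 (12118 ± 695) and Ftl1 (10956 ± 1023) overlapped at the top and Hmox1 stood below both at 6550.4 ± 845. Slc40a1 (1450.1 ± 149), Slc11a1 (555 ± 70.5), Slc11a2 (400.4 ± 2.61), Blvrb (363 ± 19.3), Tfrc (317 ± 6.52), Ireb2 (225 ± 8.79) and Ncoa4 (36.3 ± 1.64) followed without overlap. The order depends on the length used, since the transcripts in use are not known. Per kilobase of all annotated exons of a gene, which for Fth1 is 3469 bases where the transcript has 929, Hmox1 was again first in MCDHFD libraries, and it lay below Ftl1 but above Fth1 in ND libraries.

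Each iron gene was also set against the summed macrophage and monocyte markers of its library, a sum that was 4.98-fold higher in MCDHFD. Vcam1, Apoe and Mrc1 made up 44.0% of the sum in MCDHFD libraries and 32.0% in ND libraries, and Apoe had a log2 fold change of 3.97, against a median of 1.91 over the list. Against the sum, Hmox1 was higher in MCDHFD libraries than in ND libraries, by 0.30 in log2 units. Slc11a1 (-0.27), Blvrb (-0.33), Slc40a1 (-0.39) and Ncoa4 (-0.48, diets overlapping) were lower in MCDHFD libraries, but their direction turned when the mean log2 level of the markers was used in place of the sum, an alternative chosen after seeing the data: 0.27 for Slc11a1, 0.21 for Blvrb, 0.15 for Slc40a1 and 0.06 for Ncoa4, whose diets again overlapped. Ftl1 (-1.19), Fth1 (-1.30), Tfrc (-1.43), Ireb2 (-2.15) and Slc11a2 (-2.66) were lower by more. With the mean log2 level these 5 stayed lower, by 0.65 to 2.12 log2 units, and Hmox1 stayed higher, by 0.84. These are descriptions with no test, and the order among the 10 follows from their fold changes. The summed macrophage and monocyte level was lowest in replicate 1 of each diet, as were 7 of the 10 iron genes in MCDHFD libraries and 7 in ND libraries.

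**Figure D5:**
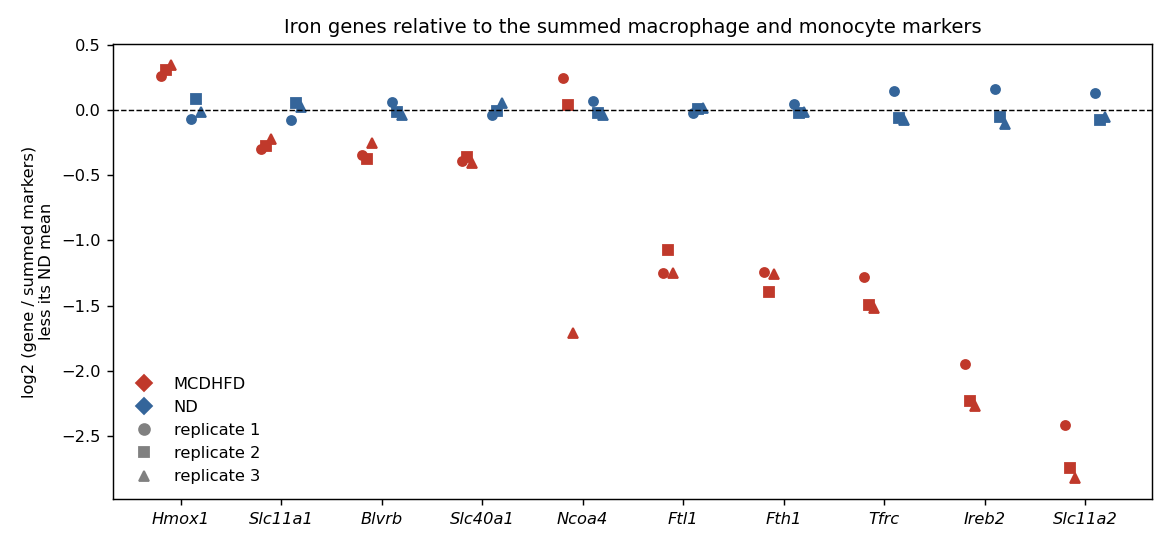
Log2 of each iron gene over the summed macrophage and monocyte markers of the same library, less its mean in ND libraries (vertical axis), for MCDHFD (red) and ND (blue) libraries. A gene at the median change of all tested genes would lie about 2.31 units lower in MCDHFD than in ND. Hmox1 lies above the ND libraries, Slc11a1, Blvrb and Slc40a1 lie just below them, Ncoa4 overlaps them, and the ferritin genes, Tfrc, Ireb2 and Slc11a2 lie more than 1 log2 unit below them on average, while with the mean log2 level of the markers in place of the sum Slc11a1, Blvrb, Slc40a1 and Ncoa4 turn to above 0.

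Around these 10 genes, 55 other genes of iron and haem handling were listed, of which 42 were tested. Of these, 29 rose, 1 fell and 12 did not pass the test, 17 rose by at least 2-fold, and the median log2 fold change was 0.63. Over all tested genes 30.3% rose, 28.1% fell and 13.1% rose by at least 2-fold, with a median of 0.004. The counts of each group below stand beside the same shares. With CD8 T cell markers held equal, 41 were higher and none lower, where 84.1% of all tested genes were higher and 3.13% lower. Spic and Cd163 of this list are also among the macrophage markers, and Lcn2 and Ltf among the neutrophil markers.

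Haem breakdown and capture had 4 of 5 tested genes higher. Cd163, the haemoglobin-haptoglobin receptor of macrophages, averaged 17551 ± 2384 normalized counts in MCDHFD libraries and 2071 ± 102 in ND libraries (log2 fold change 3.07). Lrp1, a receptor that also takes up haem bound to haemopexin, averaged 40771 ± 3463 in MCDHFD libraries and 4458 ± 496 in ND libraries (3.20). Hp, which encodes haptoglobin, rose by 2.29 in log2 units, and Blvra, the main biliverdin reductase, by 0.82. Both biliverdin reductase genes rose, as Hmox1 did. Of the haem transport genes 3 of 5 rose, led by Slc48a1, which carries haem out of the phagolysosome of macrophages, at 4485 ± 348 in MCDHFD libraries and 981 ± 36.3 in ND libraries (2.19), and Abcg2, a porphyrin exporter, rose by 1.54.

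Iron uptake and reduction had 6 of 10 tested genes higher and 1 lower. Tfr2, the second transferrin receptor, known in liver and red cell precursors, had 94.1, 184 and 162 normalized counts in MCDHFD libraries, against 4.89, 3.89 and 5.94 in ND libraries. It was near the lower limit of detection in ND libraries, and its log2 fold change of 4.60 (limma adjusted p = 3.4e-06) was the highest of the list. Lcn2 (4.04) and Ltf (2.76), which encode iron-binding proteins of neutrophil granules, rose beside the neutrophil markers. Trf, which encodes transferrin, rose by 2.09, Steap3, the endosomal iron reductase, by 2.31, and Slc39a8, a metal importer, by 1.78. Steap4, a related reductase, had 10.4, 20.6 and 11.2 normalized counts in MCDHFD libraries, against 35.2, 24.3 and 21.8 in ND libraries, and its call (log2 fold change -0.93, limma adjusted p = 0.0457) was lost under 9 alternatives and turned to 0.12 with CD8 T cell markers held equal.

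Of the genes that oxidise iron at export only Cp, which encodes ceruloplasmin, was tested, and it rose by 2.15. None of the 3 tested iron chaperone genes passed the test: the log2 fold changes were -0.11 for Pcbp1, -0.04 for Pcbp2 and 0.21 for Pcbp3. The proteins of this family are known to hand iron to ferritin. Their outcome depended on scaling. Under quantile scaling 1 of the 3 was called lower, where 33.9% of all tested genes were. With CD8 T cell markers held equal all 3 were called higher, where 84.1% of all tested genes were.

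Sensing and regulation had 6 of 7 tested genes higher. Spic, the transcription factor that red pulp macrophages need and that haem induces, had 6584, 7088 and 7332 normalized counts in MCDHFD libraries, against 1751, 1919 and 1756 in ND libraries (log2 fold change 1.95). Bach1, the haem-sensing repressor of Hmox1, rose by 0.28 (limma adjusted p = 0.00748), and Nfe2l2, which encodes the activator NRF2, by 0.54. Zfp36, which encodes an RNA-decay factor known to act on Tfrc RNA, rose by 1.49. Fbxl5, the iron-sensing ligase subunit that marks iron regulatory protein 2 for breakdown, did not pass the test (log2 fold change 0.18, limma adjusted p = 0.063). Of the hepcidin axis, Hfe rose by 1.94, while Hamp, the hepcidin gene, had at most 2.24 normalized counts in any MCDHFD library and 0 in all ND libraries, which allows up to 3 counts per library and no fold.

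Mitochondrial iron and haem synthesis had 8 of 10 tested genes higher. Abcb10 and Fech, which encode a mitochondrial transporter of the haem pathway and the enzyme that puts iron into haem, rose by 1.90 and 1.57 in log2 units, and the other 6 rose by less than 1 unit. All 20 tested erythroid markers rose in the same libraries, and their part in these changes was not tested.

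Over all 6 libraries, the tested genes outside both iron lists whose log2 values followed Hmox1 most closely were Slc16a10, Rgl1, Sort1, Slc16a9 and Slc43a1, with Pearson correlations of 0.9998 to 0.9999. The libraries fall into the diets, so these values mostly reflect a shared difference between diets, and no p is given. Slc16a10 had 1864, 2219 and 2201 normalized counts in MCDHFD libraries, against 537, 638 and 596 in ND libraries. Within each diet it was lowest in replicate 1, as Hmox1 was, but it was picked for following Hmox1 in these same libraries, so this is no separate observation.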

How the data were processed

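RNA of splenic CD8+ T cells was isolated with TRIzol and made into libraries with either of 2 kits, for whole RNA or for mRNA, per the labels' protocols. The sources used here give neither the kit of each library nor the aligner, the counter and its strand setting. The deposited signal is normalized counts per Ensembl gene, which the authors scaled from read counts, per the file headers. The build was mm10, per the submitters' processing notes. Normalized totals were 14119816 to 14752121 per library. Dividing by the smallest value above 0 gave whole numbers for 100% of values (tolerance 0.01) in all 6 libraries. ND replicate 3, whose smallest value of 0.990 was the nearest to 1, passed this check too, but was left out of count tests as a precaution. The other 5 held 13188812 to 15482458 reads. Chi-square divided by its degrees of freedom was 5.20 to 9.55 for the 4 same-diet pairs with recovered reads, none of which agreed within sampling noise. For the pairs that include ND replicate 3 only a correlation was computed.

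Genes with a mean of at least 10 were tested with limma 3.58.1 (R 4.3.3, intensity trend, diet as the only term) after a log2 transform with a pseudocount of 1, which understates changes of low genes, with Benjamini-Hochberg adjustment over all 13430 genes at 0.05. The 5 within-library ratios had a two-sided exact permutation test over 20 arrangements. Alternatives used edgeR 4.0.16 and DESeq2 1.42.0 on recovered reads, other scalings, filters and pseudocounts, a replicate block, and each library left out. Symbols were matched by identifier for 19202 genes, and coordinates came from GENCODE M21, which may not be the authors' annotation.

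The 10 genes and all lists were chosen with earlier results of these data known. Named genes were the 10, wider-list genes past the test with at least a 2-fold change plus 10 named regulators and partners, and the 5 genes that followed Hmox1 most closely. The 3 highest markers per list were also in the rule and are given as list sums. Steap4, the chaperone genes, the copies of ferritin genes and the markers that did not follow their list were added after their values were seen.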

Additional observations from a re-analysis of the deposited data

How the results depend on the processing

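The 10 iron genes kept 9 or 10 calls under every alternative run. With 8 higher and 1 lower under quantile scaling, edgeR and DESeq2, the lost call was Ireb2, whose log2 fold change was 0.08, 0.12 and 0.12 there. With CD8 T cell markers held equal, all 10 were higher, where 84.1% of all tested genes were. The 2 iron genes called lower with the deposited scaling reversed, Slc11a2 to 0.71 and Steap4 to 0.12. Pcbp1, Pcbp2 and Slc39a14, slightly lower before without passing the test, turned upward as well. Hmox2 (1.28) and Fbxl5 (1.24) then passed the test. Leaving out each library in turn gave 7069 to 7677 calls over all genes, 9 to 10 among the iron genes and 28 to 31 in the wider list, Ireb2 being lost in 4 of 6 cases and Steap4 in 5 of 6, Fbxl5 passing without ND replicate 1 (0.25), and Ncoa4 ran from 1.53 to 2.39. The log2 differences of the ratios then ran from -0.16 to -0.0019 for Fth1 to Ftl1, 0.95 to 1.12 for Slc40a1 to Tfrc, 2.29 to 2.53 for Slc11a1 to Slc11a2, 2.23 to 2.62 for Hmox1 to Hmox2 and 0.57 to 0.68 for Hmox1 to Blvrb. Same-numbered libraries of the diets correlated at 0.00572 to 0.0621 in their deviations, and differently numbered ones at -0.0573 to 0.0197. All these values are weak, and they cannot decide whether the numbers pair the libraries. With the replicate block, 7707 genes, 10 iron genes and 29 wider-list genes were called. Both tests on recovered reads rest on 2 ND libraries, without ND replicate 3. Tfr2, Steap4 and Hamp lie near the depth limit in at least 1 diet.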
